A study of Mus musculus with 3 samples.

Results

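Notch signalling was described here through 10 genes in mpkDCT4a cells, a cultured mouse kidney line whose labels give its cell type as DCT. The members were taken by name: the receptors Notch1, Notch2, Notch3 and Notch4, the ligands Jag1, Jag2, Dll1 and Dll4, the DNA-binding factor Rbpj and the target gene Hes1. All 10 were found among the 55487 genes of the deposited count table. The series holds 3 libraries of wild-type cells and no other condition, so levels are described and no condition is compared. The cells grew at 37 °C in medium with 2% serum and 20 mM glucose. Its hormones and growth factors were insulin (5 µg/ml), epidermal growth factor (10 ng/ml), dexamethasone (50 nM) and triiodothyronine (1 nM), beside selenate, transferrin, glutamine and buffer. RNA left after removal of ribosomal RNA was sequenced.

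Notch receptors are membrane proteins that are activated by ligands on a neighbouring cell. Ligand pulling exposes the receptor to an ADAM protease and then to gamma-secretase, which releases the intracellular domain to the nucleus, where it joins Rbpj and a Mastermind coactivator and switches on genes of the Hes and Hey families. In the kidney the pathway is known for patterning the nephron, and in the collecting duct for the choice between principal and intercalated cells.

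The libraries were shallow, with 436983, 482418 and 443192 counts for replicates 1, 2 and 3, so 1 count stood for 2.07 to 2.31 CPM (counts-per-million). For a gene never read, 0 counts allow a level of up to 2.20 CPM, a one-sided limit worth 3 counts over the summed libraries. Separate cultures are not stated in the labels. The spread that the p-values measure is thus only that of these 3 samples and could be technical. Intervals are two-sided at 95% and, like this limit, cover counting error only. Values are mean ± SD over the 3 libraries (n = 3) unless said otherwise. Of 12 distal convoluted tubule markers, 5 were detected, meaning a mean of at least 1 CPM (Wnk4, Cnnm2, Trpm6, Kcnj10 and Egf). Among all protein-coding genes 50.6% were detected. The summed level of the 12 markers was 66.3 to 94.1 CPM per library. Slc12a3, the sodium-chloride cotransporter that defines this segment, had no count, nor had Pvalb, Calb1 and Klhl3.

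Of the 10 Notch genes, 7 were detected, against 50.6% of protein-coding genes. Counts in every library were found for 7 members, against 46.6% of protein-coding genes, and 6 reached 10 CPM, against 40.8%. The undetected members were Notch3, Notch4 and Dll4. The median level of the members was 17.3 CPM, beside 1.46 CPM for all protein-coding genes and 39.6 CPM for the detected ones. As these were bulk libraries, fewer cells that express a gene and less RNA per cell cannot be told apart.

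**Figure D1:**
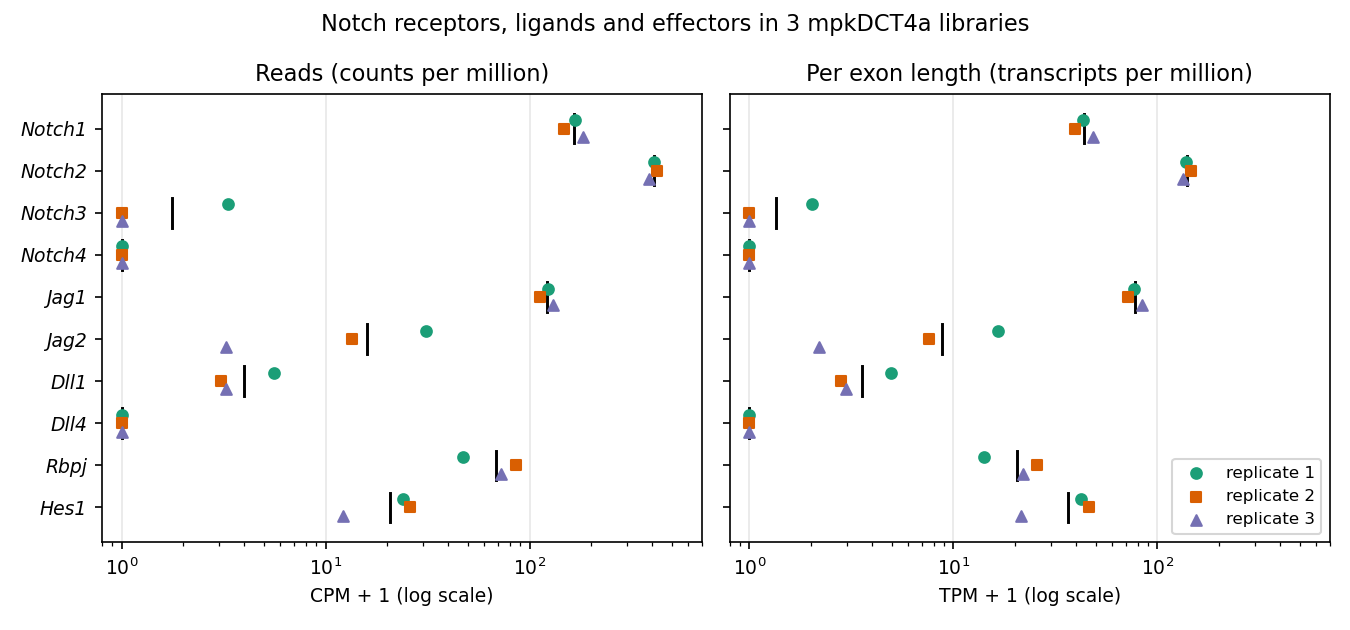
Level of each Notch gene in the 3 libraries (coloured symbols), with the mean as a vertical bar, in CPM + 1 on the left and in TPM (transcripts-per-million) + 1 on the right, both on a log axis. Notch2, Notch1 and Jag1 lie close together across libraries, Jag2 spreads from 2.24 to 29.99 CPM, and Notch4 and Dll4 have no count.

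Notch2, known for the formation of the proximal nephron, was the receptor with the highest level. Its gene (ENSMUSG00000027878) lies on the plus strand of chromosome 3 from 98013527 to 98150361 in GRCm38, and its longest annotated transcript has 34 exons. It was read 177, 204 and 172 times in replicates 1 to 3, which gave 408, 422 and 385 CPM. The 3 libraries sat close together, at 405 ± 18.8 CPM, a level above that of 98.4% of protein-coding genes. Per exon length, the scale on which genes can be compared with each other, its level was 138 ± 6.36 TPM. On that scale it was above 94.2% of protein-coding genes.

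Notch1, best known for T cell development, was the only other receptor with more than a single read. The gene (ENSMUSG00000026923, chromosome 2, 26457903 to 26516663, minus strand) had 72, 71 and 81 counts, or 166, 147 and 181 CPM. Its mean was 165 ± 17.2 CPM and 42.7 ± 4.53 TPM, and every library was below the lowest Notch2 library on both scales. Of its 50-base stretches 9.11% lie in noncoding genes on the opposite strand (0610009E02Rik and Gm13568). For Notch2 the shared part was 3.76%, in Gm42820, which lies on the same strand as Notch2. Per exon length Notch2 was 3.26 times as high as Notch1 (interval 2.79 to 3.82). Per length of the longest transcript the ratio was lower, at 2.23 (interval 1.91 to 2.62), so its size depends on the length used. Within libraries the log2 ratio of CPM was 1.30, 1.52 and 1.08 for replicates 1 to 3, with Notch2 higher each time. The exact two-sided sign-flip test over 3 libraries gave p = 0.25, the smallest it can give (adjusted p = 0.321 over the pairs), so this design cannot reach 0.05 for any pair.

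Notch3, known as a receptor of vascular smooth muscle and pericytes, had a single count, in replicate 1. The gene (ENSMUSG00000038146, chromosome 17, 32120820 to 32166852, minus strand) therefore had 2.31 CPM in that library and 0 in the others. Notch4, known as a receptor of endothelium (ENSMUSG00000015468, chromosome 17, 34564268 to 34588503, plus strand), had 0 counts in all 3 libraries, with the one-sided limit of 2.20 CPM. Per exon length the Notch1 level was 127 times that of Notch3, with an interval of 22.6 to 5051 that reflects the single Notch3 count.

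Markers of endothelial, mural and fibroblast cells were also looked up. Which cells their reads came from, and any link to the Notch3 and Notch4 levels, was not tested. Of 9 endothelial markers 2 were detected (Flt1 and Egfl7), against 50.6% of protein-coding genes, and the summed level was 11.5 to 13.4 CPM per library. Pecam1, Cdh5, Kdr and Tek were among the 6 endothelial markers without a count. Of 10 mural and fibroblast markers 5 were detected (Tagln, Col1a1, Acta2, Des and Pdgfrb), near the share of all protein-coding genes. Each was under 10 CPM, and the list summed to 15.7 to 26.9 CPM per library. Rgs5, Myh11, Cspg4 and Pdgfra had no count.

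The promoters of the receptor with the highest level and of the receptor without a read are shown to set their sequences beside those levels. They are the 250 bases before the RefSeq start site (GRCm38.p6), 5′ to 3′ on the gene's own strand. The Notch2 window is chr3:98013288-98013537 on the plus strand, and the Notch4 window is chr17:34564045-34564294 on the plus strand. No letter is in capitals because neither window holds TGGGAA, the core of the Rbpj recognition sequence, on either strand.
Notch2: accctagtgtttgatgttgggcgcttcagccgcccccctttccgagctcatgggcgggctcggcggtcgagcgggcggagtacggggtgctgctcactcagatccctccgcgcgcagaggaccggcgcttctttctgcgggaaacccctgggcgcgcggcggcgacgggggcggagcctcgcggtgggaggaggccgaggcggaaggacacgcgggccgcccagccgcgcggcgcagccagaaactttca
Notch4: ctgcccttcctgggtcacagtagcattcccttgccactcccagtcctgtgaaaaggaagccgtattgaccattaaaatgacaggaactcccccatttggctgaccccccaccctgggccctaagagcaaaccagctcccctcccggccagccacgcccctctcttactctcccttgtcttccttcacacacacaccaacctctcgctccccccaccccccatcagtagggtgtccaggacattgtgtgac

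The CpG content of these windows differed. The ratio of observed to expected CpG was 1.06 in the Notch2 window and 0.226 in the Notch4 window, and the median over 32851 promoters was 0.374. The ratio was 0.588 in the Notch1 window and 0.595 in the Notch3 window. Among the ligands it was 0.98 for Jag1, 1.14 for Jag2, 0.825 and 0.664 for the Dll1 windows and 0.557 for Dll4. The Rbpj windows had 0.797 and 0.888. These are descriptions of sequence, and a relation to the level was not tested.

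The receptor transcripts were split between Notch2 and Notch1 in every library. Notch2 held 76.0%, 79.1% and 73.7% of receptor TPM in replicates 1 to 3 (76.3% ± 2.73), and Notch1 held 23.5% ± 2.72. These shares use exon lengths. Per length of the longest transcript the mean levels were nearer, at 111 TPM for Notch2 and 49.8 TPM for Notch1. By counts, which favour long transcripts, Notch2 held 553 of 778 receptor reads, or 71.1% (exact binomial interval 67.8 to 74.2%). Notch3 held 0.129% of receptor reads, with an interval of 0.00325 to 0.714%.

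**Figure D2:**
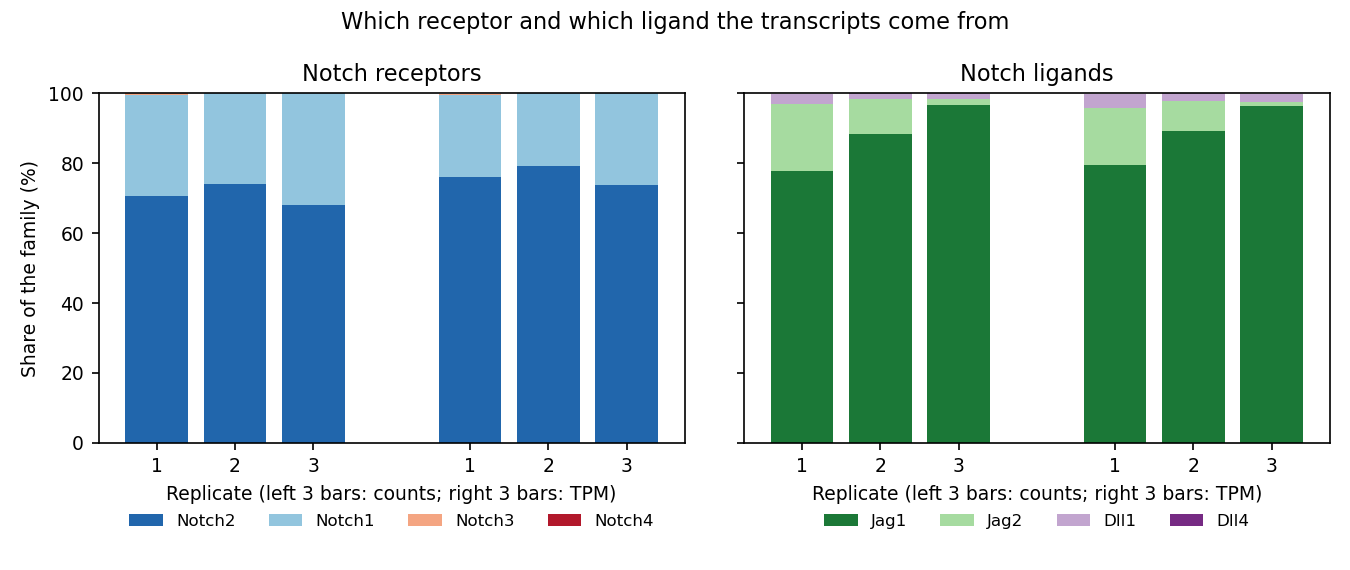
Share of each gene in the 4 receptors (left panel) and in the 4 ligands (right panel), in percent, per replicate; in each panel the left 3 bars use counts and the right 3 use TPM. Notch2 is the largest receptor segment and Jag1 the largest ligand segment in every bar, while the Jag2 segment shrinks from 19.1% of counts in replicate 1 to 1.67% in replicate 3.

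Jag1 was the ligand with the highest level. This gene (ENSMUSG00000027276, chromosome 2, 137081456 to 137116644, minus strand), known for its role in bile duct and kidney development, had 53, 54 and 58 counts, or 122, 112 and 130 CPM. The libraries were close together, at 121 ± 9.09 CPM and 76.7 ± 5.84 TPM. None of its 50-base stretches occurred in another annotated gene. Per length, its level was above that of 88.1% of protein-coding genes.

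Jag2 varied more between libraries than any other member with at least 10 reads. The gene (ENSMUSG00000002799, chromosome 12, 112907819 to 112929776, minus strand) had 13, 6 and 1 counts, or 29.99, 12.4 and 2.24 CPM. Its mean of 14.9 ± 14.0 CPM (7.81 ± 7.28 TPM) thus stands for libraries that do not sit together: replicate 1 was high and replicate 3 low. A chi-square test of the 3 counts against library size gave an unadjusted p of 0.00274, and an exact multinomial test, added after seeing the data, gave 0.00222. Adjusted over the 12473 genes tested by the Benjamini-Hochberg method, the chi-square p was 0.836 (0.660 to 0.838 over the alternatives), so the difference did not pass. Without replicate 1 the Jag2 level was 7.36 CPM, without replicate 2 it was 16.1 CPM and without replicate 3 it was 21.1 CPM.

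Jag2 had the lowest p of the members tested. Of the 7 members tested 0 passed, against 0.0401% of all genes tested, and 1 (Jag2) was under an unadjusted 0.05, against 4.89%. In libraries of this depth, simulated with counting error only, a 4-fold change in 1 library was found for 74.5% of all genes tested. A 2-fold change was found for 36.5%. Among genes of at least 20 CPM, which leaves out Jag2, Hes1 and Dll1, these shares were 99.5% and 50.5%. No share was computed for genes under 20 CPM alone, where these members lie.

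Delta-like ligands were close to absent from the reads. Dll1 (ENSMUSG00000014773, chromosome 17, 15367354 to 15376872, minus strand), known for somite and lymphocyte development, had 2, 1 and 1 counts, or 4.61, 2.07 and 2.24 CPM (2.98 ± 1.42 CPM, 2.59 ± 1.20 TPM). These reads are uncertain, since 16.1% of its 50-base stretches also lie in A930024N18Rik, a noncoding gene on the opposite strand, and whether the counting used strand was not given in the sources used here. Dll4 (ENSMUSG00000027314, chromosome 2, 119325784 to 119335962, plus strand), the ligand of sprouting endothelium, had 0 counts in all 3 libraries. With 4 reads of Dll1 and none of Dll4 their levels could not be ordered, since the lower bound of the ratio per exon length was 0.603.

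Jag1 made up most of the ligand transcripts. It held 79.5%, 89.4% and 96.3% of ligand TPM in replicates 1 to 3 (88.4% ± 8.43), and 165 of 189 ligand reads, or 87.3% (interval 81.7 to 91.7%). Jag2 held 10.6% of ligand reads (interval 6.58 to 15.9%) and Dll1 2.12% (interval 0.580 to 5.33%). Per exon length Jag1 was 9.86 times as high as Jag2 (interval 6.18 to 16.6) and 29.9 times as high as Dll1 (interval 11.4 to 111). The Jag1 to Jag2 ratio was uneven, with log2 ratios of CPM of 2.01, 3.12 and 5.57 in replicates 1 to 3 (3.57 ± 1.82), and a mean of 4.35 without replicate 1 and 2.56 without replicate 3. Its interval covers counting error and not this spread. The Jag2 level was 3.03 times that of Dll1 per length (interval 1.01 to 12.2), and in replicate 3 both had 1 count.

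Receptor transcripts outnumbered ligand transcripts in each library. Summed over the family, the receptors reached 181 ± 1.89 TPM and the ligands 87.1 ± 8.09 TPM. The ratio of receptor to ligand TPM was 1.89, 2.31 and 2.09 in replicates 1 to 3, a mean of 2.10 ± 0.209. The summed receptor level was 577, 569 and 567 CPM (571 ± 5.21), from 250, 275 and 253 counts. The summed ligand level was 157, 126 and 134 CPM, from 68, 61 and 60 counts. Its highest value was in replicate 1, which had the most Jag2 reads. Whether either sum differs between libraries beyond counting error was not tested.

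Rbpj, the DNA-binding factor through which all the receptors act, was detected in every library. The gene (ENSMUSG00000039191, chromosome 5, 53466152 to 53657362, plus strand) had 20, 41 and 32 counts, or 46.1, 84.9 and 71.7 CPM. Replicate 1 was the lowest, and the mean was 67.6 ± 19.7 CPM and 19.6 ± 5.90 TPM. The difference between libraries did not pass (chi-square test, Benjamini-Hochberg adjusted p = 0.902, unadjusted p = 0.0764). Of its 50-base stretches 10.6% also occur in other genes, among them the pseudogene Rbpj-ps3, so a part of its reads could have been assigned elsewhere or left out.

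An Rbpj promoter is shown because, among the 9 members with a promoter entry (all but Hes1), only Rbpj windows held the core TGGGAA. This window is chr5:53590096-53590345 on the plus strand (RefSeq, GRCm38.p6, the 250 bases before the start). Capitals mark TGGGAA and its reverse complement TTCCCA.
Rbpj: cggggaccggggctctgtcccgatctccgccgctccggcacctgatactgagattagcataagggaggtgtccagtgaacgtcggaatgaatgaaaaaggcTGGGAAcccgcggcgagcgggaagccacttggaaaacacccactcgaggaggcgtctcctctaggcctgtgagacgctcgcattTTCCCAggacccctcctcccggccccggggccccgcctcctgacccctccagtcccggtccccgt

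The core TGGGAA, searched on both strands, occurred in 21.59% of 32851 promoter windows of this length. The 9 members had 11 windows in all, and 2 windows held it, both of Rbpj and overlapping each other. The longer form GTGGGAA, which contains the core, occurred in 5.415% of all windows and in 0 of the 11. These are matches of letters and not measured binding.

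Hes1, a transcriptional repressor and the best known direct target of Notch, was read at a moderate level. The gene (ENSMUSG00000022528, chromosome 16, 30064384 to 30067796, plus strand) had 10, 12 and 5 counts, or 23.1, 24.9 and 11.2 CPM. Replicate 3 was the lowest, and the mean was 19.7 ± 7.42 CPM. Because the gene is short (2037 exonic bases, against 14232 for Notch1), its level per length was 35.6 ± 13.3 TPM, above that of 76.7% of protein-coding genes. That share includes genes without a read, and the median of detected protein-coding genes was 31.4 TPM. The Hes1 spread between libraries did not pass the chi-square test (Benjamini-Hochberg adjusted p = 0.939).

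Ranked by mean TPM, the members ran from Notch2 through Jag1, Notch1, Hes1, Rbpj, Jag2 and Dll1 to Notch3, with Dll4 and Notch4 at 0. The upper ranks were apart on this scale: Notch2 was 1.81 times Jag1 per exon length (interval 1.52 to 2.17) and Jag1 1.80 times Notch1 (interval 1.46 to 2.21), with no overlap of library values. Per length of the longest transcript, Jag1 was 1.25 times Notch1 (interval 1.01 to 1.53), because the annotated exons of Notch1 add up to 14232 bases and its longest transcript has 9488. By reads Jag1 was below Notch1 in all 3 libraries, with 165 counts against 224 (ratio 0.737, interval 0.599 to 0.905).

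Notch1 and Hes1 did not differ beyond their error. Their ratio per exon length was 1.19 (interval 0.795 to 1.84), and the library values overlapped. Hes1 was 1.82 times Rbpj per exon length (interval 1.14 to 2.82) but 1.08 times per longest transcript (interval 0.679 to 1.68), and library values overlapped here too. By reads the direction turned: Rbpj had 93 counts and Hes1 27, a log2 ratio of Hes1 to Rbpj of -1.79 ± 0.82, against 0.81 per exon length and 0.08 per longest transcript. Rbpj was 2.54 times Jag2 (interval 1.55 to 4.35), again with overlapping libraries. Dll1 and Notch3, with 4 reads and 1, could not be ordered (ratio 7.67, interval 0.759 to 378).

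The wider pathway was read through 70 further genes in 9 lists by role, of which 54 were detected and 14 had no count. Of all protein-coding genes 50.6% were detected, the share to set beside this count and the list counts that follow. Of the 54, 0 passed the chi-square test between libraries after adjustment, and 3 (Kat2b, Ctbp1 and Sox9) had an unadjusted p under 0.05, against 0.0401% and 4.89% of all genes tested. Levels of single genes in these lists are in CPM, and ratios between genes are per exon length.

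**Figure D3:**
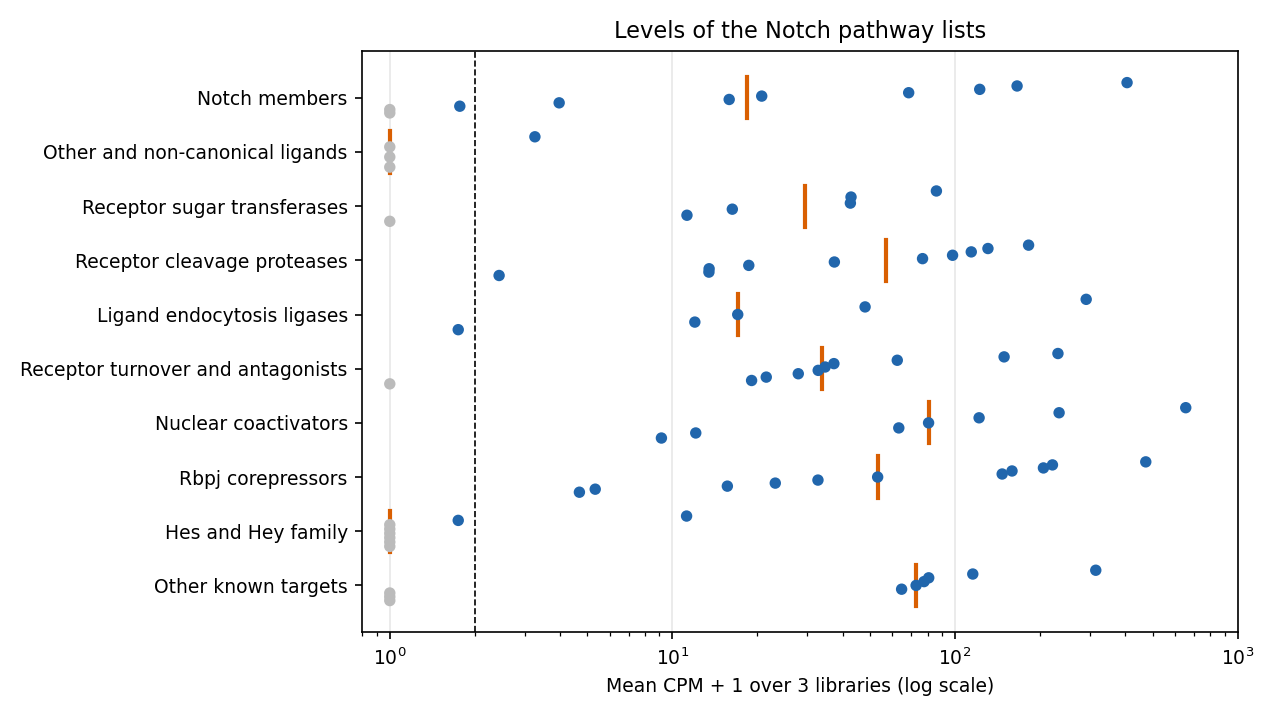
Mean level over the 3 libraries, in CPM + 1 on a log axis, of each gene (points) in the Notch members and the 9 pathway lists, with the list median as an orange bar, genes without a count in grey and the dashed line at 1 CPM. Coactivators, corepressors and cleavage proteases all had a mean of at least 1 CPM (Aph1c from 2 reads only), while the Hes and Hey list and the other ligands pile up at 0.

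Enzymes that modify the receptors were mostly present. Of 6 sugar transferases 5 were detected: Poglut1 at 85.0 ± 11.6 CPM, Eogt at 41.9 ± 4.48, Pofut1 at 41.6 ± 5.21, Rfng at 15.3 ± 7.82 and Lfng at 10.3 ± 0.989. Pofut1 and Poglut1 add the O-fucose and O-glucose that receptors need, and the Fringe enzymes Lfng, Mfng and Rfng extend the fucose, which changes the response to Delta-like against Jagged ligands. Mfng had no count, and Rfng and Lfng did not differ beyond counting error (ratio 1.51, interval 0.732 to 3.21).

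All 10 genes for receptor cleavage were detected, with a median of 56.1 CPM. The lowest, Aph1c, had 0, 1 and 1 counts (1.44 CPM), under the 2.20 CPM that 0 counts allow. Furin, which cuts the receptor during its maturation, was at 113 ± 14.98 CPM. Adam10, the main sheddase of ligand-bound Notch, was at 181 ± 15.3 CPM and Adam17 at 97.1 ± 22.7, a ratio of 2.72 (interval 2.20 to 3.39). Per length of the longest transcript this ratio was 1.82 (interval 1.47 to 2.27), so its size depends on the length used. The log2 ratios of CPM were 1.20, 1.15 and 0.407 in replicates 1 to 3. The ratio of Aph1a to Aph1b, alternative scaffold subunits of gamma-secretase, was 3.12 (interval 1.88 to 5.30) and is uncertain because 39.5% of the Aph1a stretches occur in other genes and Aph1b shares sequence with its copy Aph1c.

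Ligand-activating ubiquitin ligases were led by Mib1, which drives the endocytosis of Jagged and Delta-like proteins. Mib1 had 129, 134 and 132 counts (290.3 ± 11.1 CPM) and was 7.76 times as high as Mib2 (interval 5.05 to 12.5). Neurl1b was at 47.1 ± 15.5 CPM, Mib2 at 16.03 ± 3.91 and Neurl3 at 11.0 ± 2.18, and Neurl1a had 1 count. Of the 4 other ligands, Dll3, Dlk1 and Dner had no count and Dlk2 had 3.

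Of 10 genes for receptor turnover and antagonism 9 were detected. Dtx4, a Deltex ligase, was at 230.4 ± 22.7 CPM, Itch, which ubiquitinates Notch, at 148 ± 2.31, Dtx3l at 61.5 ± 7.45 and Fbxw7, which marks the intracellular domain for destruction, at 36.3 ± 11.1. Dtx1, itself known as a Notch target in lymphocytes, had no count. Numb, an endocytic antagonist, was 3.40 times as high as Numbl per length (interval 2.06 to 5.68), but by counts the interval of their ratio included 1 (1.54, 0.932 to 2.57). Nrarp, a feedback inhibitor induced by Notch and named here after its value was seen, was at 18.1 ± 7.67 CPM, with 77.3% of its stretches shared with the antisense gene Gm38287.

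Partners of Rbpj in the nucleus all reached a mean of 1 CPM. All 7 coactivators had reads, with a median of 79.6 CPM: Snw1 at 655 ± 37.96, Ep300 at 233 ± 12.7, Kat2a at 121 ± 14.7 and Maml1 at 79.6 ± 10.2. Of the Snw1 exons 44.2% overlap Slirp on the other strand, so its reads are uncertain. Maml1, which bridges Notch and Rbpj, was 11.8 times as high as its relative Maml2 (interval 6.36 to 24.4). All 11 corepressor genes were detected too, with a median of 52.3 CPM, among them Ncor1 at 472 ± 32.1, Ctbp1 at 205 ± 40.7 and Kdm5a at 158 ± 14.3. The lowest were Cir1 (1, 3 and 2 counts), with 37.35% of its stretches shared with other genes, and Tle2 (3, 2 and 0 counts).

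Targets of the pathway were uneven. Beside Hes1, 1 of 8 Hes and Hey genes was detected, Hes6, at 10.2 ± 3.07 CPM. Hes6, known as an antagonist of Hes1, had 5, 6 and 3 counts. The Hes1 level was 1.71 times that of Hes6 per exon length, with an interval that included 1 (0.867 to 3.53). Per length of the longest transcript it was 2.07 times, with an interval just above 1 (1.05 to 4.26). Whether they differ beyond counting error thus depends on the length used. Hey1 had 1 count, and Hes2, Hes3, Hes5 and Hes7 were among the 6 without any.

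Of 9 other genes known as Notch targets in some tissues, 6 were detected, with Ccnd1 at 314 ± 29.6 CPM, Nfkb2 at 115 ± 4.53, Cdkn1a at 79.7 ± 6.67 and Ccnd3 at 76.7 ± 14.9. The Ccnd1 and Nfkb2 reads are uncertain, since 21.6% and 14.9% of their 50-base stretches lie in genes on the opposite strand. Snai2, Ptcra and Il2ra had no count, and Ptcra and Il2ra are known as targets in T cells. Each of these genes also answers to other signals, and no library with Notch altered was at hand, so whether Notch sets any of these levels was not tested.

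**Figure D4:**
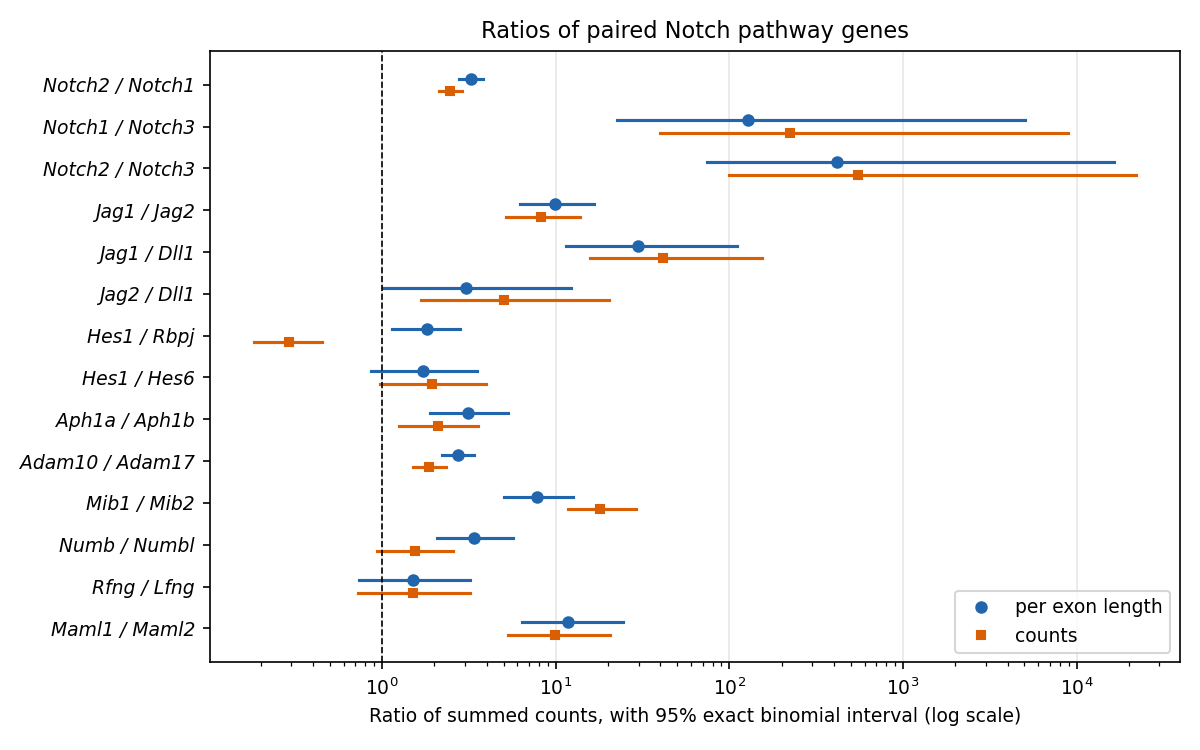
Ratio of the first to the second gene of each of 14 pairs from counts summed over the 3 libraries, with 95% exact binomial intervals, on a log axis; blue circles are per exon length, orange squares by counts, and the dashed line is at 1. Hes1 over Rbpj lies on opposite sides of the line on the 2 scales, and Rfng over Lfng and Hes1 over Hes6 cross it on both.

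Of the 18 gene pairs compared, 16 had more than 3 counts, and in 14 of these all 3 libraries had the same direction on the CPM scale. The exceptions were Jag2 over Dll1, equal in replicate 3, and Rfng over Lfng, which turned in replicate 1. Of the markers of other tubule cells, 1 of 8 for principal cells and 0 of 8 for intercalated cells were detected, against 50.6% of protein-coding genes. These are the cell types between which Notch is known to choose in the collecting duct.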

How the data were processed

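RNA-seq of 3 mpkDCT4a libraries of 1 group was analysed. The authors deposited raw counts, whole numbers of reads per Ensembl gene. Per the submitters' processing notes, the genome build was mm10 and the tools included STAR and HTSeq. Versions, settings, strand and the handling of multi-mapped reads were not given in the sources used here. GENCODE M21 supplied symbols, coordinates and exon lengths, and 55227 of 55487 identifiers matched (the 260 others held 313 counts).

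From the deposited counts, CPM were computed with TMM library sizes (edgeR 4.0.16, R 4.3.3; factors 0.992, 1.00 and 1.01), and TPM from the union of annotated exons. Each gene of at least 1 CPM was tested between libraries (chi-square, adjusted after Benjamini and Hochberg, threshold 0.05). edgeR's common biological coefficient of variation was 0.0394. Pairs were compared as log2(CPM + 0.5) within libraries by an exact sign-flip permutation test. Counts summed over libraries also gave a ratio per pair with its exact binomial interval. Shared sequence was counted as 50-base stretches found in transcripts of another gene. Promoters were matched to RefSeq by symbol. The chi-square test was tried on data simulated with counting error only (12473 genes, 200 changed). Of genes changed 1.5-, 2- and 4-fold in 1 library 7%, 36.5% and 74.5% were found, and with none changed 0 calls were made. Alternatives were DESeq2 1.42.0 size factors, library totals, each replicate left out, other detection rules, a pseudocount of 2 and other lengths. Other software was scipy 1.17.1, pandas 2.3.3, numpy 2.4.6 and matplotlib 3.10.9 under Python 3.11.15.

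The members and lists were chosen with earlier results of these data known. All members and pair genes were named, with the 4 highest genes by CPM and up to 4 genes without a count of each pathway list, and for each marker list the detected genes and up to 4 without a count, except for items not reported here. Of the leukocyte markers 2 of 8 were detected, against 50.6% of protein-coding genes. They were Csf1r at 45.8 ± 11.6 CPM and Cd68 at 3.72 ± 1.43, and the list summed to 37.3 to 62.7 CPM per library. Ptprc, Lyz2, Adgre1 and Cd3e were among those at 0.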

Additional observations from a re-analysis of the deposited data

How the results depend on the processing

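Jag2 moved from 14.9 CPM to 7.36 without replicate 1, 16.1 without replicate 2 and 21.1 without replicate 3, and Notch3 from 0.769 CPM to 0 without replicate 1. Of the pair ratios, 126 of 128 kept their direction. The 2 that turned were Hes1 over Rbpj, with a log2 ratio of -1.79 by reads, 0.81 per exon length and 0.084 per length of the longest transcript. The mean Notch2 share of receptors was 71.0% by counts and 76.3% per exon length. The number of genes that differed between libraries was 5 with all libraries and 1 to 3 when a replicate was left out, with 0 Notch genes each time. Detected members numbered 6 to 8, and 8 without replicate 2 or 3, since the single Notch3 read then averages above 1 CPM. Without replicate 3 Hes1 ranked above Notch1, at 43.1 against 40.3 TPM. No paired analysis was possible because the series holds 1 group only. Depth limits what can be said of Notch3, Notch4, Dll1 and Dll4, whose levels lie near or under the value of 3 counts, 2.20 CPM over all libraries and 6.21 to 6.92 CPM in 1 library.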
